A study of Mus musculus with 8 samples.

Results

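This account covers open chromatin at 42 genes of the lysosome and of autophagy in mouse leukaemia cells, out of 21887 protein-coding genes. The genes are a fixed list, chosen with earlier results of these data known. A peak was counted for a gene when its summit lay in the gene body or within 10 kb of it on mm10. Overlapping peaks (1 bp or more) of different libraries were joined into one region. Of 32730 regions, 25534 lay in the window of a protein-coding gene and 114 in the window of a listed gene. Every listed gene had a peak in at least 1 library.

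The libraries are ATAC-seq, in which a transposase cuts open DNA. All groups were GFP+ MLL-AF9 acute myeloid leukaemia cells, labelled TetO-Klf4-AML, sorted from bone marrow of leukaemic mice. TetO-Klf4 is a construct from which doxycycline induces Klf4, a zinc-finger transcription factor. The groups differ in the time label, 0, 6, 12 or 24 hours, with 2 libraries each. The strain is entered as C57BL/7 under the cell line tag. The labels used here do not give the age of the mice, whether the 0h cells received doxycycline, or whether the libraries of a group stem from different mice. The p-values below thus reflect only how these libraries differ, which may be technical. In such bulk samples, fewer cells with an open site and less opening per cell cannot be told apart.

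Lysosomes are acidic organelles in which hydrolases such as the cathepsins digest proteins, lipids and sugars. A proton pump, the V-ATPase, acidifies them. In autophagy, a membrane grows around cytoplasm or organelles, closes into an autophagosome and fuses with a lysosome. The basic helix-loop-helix factors Tfeb, Tfe3 and Mitf bind a palindromic E-box, the CLEAR element, at many genes of both systems. Cells of the monocyte and macrophage lineage are rich in lysosomes and in cathepsins.

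The CLEAR element was the first feature read, since it does not depend on the peak lists. Promoter sequences, 250 bases before and 50 after a listed start, came from RefSeq (GRCm38.p6, the assembly of mm10) and matched 33 of the 42 genes, with 41 starts. The E-box core CACGTG, a palindrome that reads alike on both strands, stood in 11 of the 41 listed promoters (26.8%). It stood in 7.15% of all 32851 promoters of the table, in 7.84% of those of protein-coding genes and in 11.6% of the 7327 promoters that a peak overlapped in all 8 libraries. The longer palindrome TCACGTGA, which holds the core, was found in 6 of 41 (14.6%), against 0.974% of all promoters and 2.65% of those open in all 8. The whole element, with 1 more base on each side, was found in 1 of 41, at Cln3, against 0.326% of all promoters. These are letters in a window and not measured binding. Since the element is known at many genes of both systems, its higher share here is no finding about these libraries.

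The 6 genes with the longer palindrome were Atp6v0d1, Atp6v1a, Cln3, Ctsa, Ctsd and Mcoln1. The windows of 30 bases below show 4 of those sites, 5′ to 3′ along the gene, with capitals for the core and the letters that extend its palindrome.
Atp6v0d1 (chr8:105566050-105566079, minus strand): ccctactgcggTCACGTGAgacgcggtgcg
Atp6v1a (chr16:44139373-44139402, minus strand): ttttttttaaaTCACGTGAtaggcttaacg
Cln3 (chr7:126583340-126583369, minus strand): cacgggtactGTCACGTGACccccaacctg
Ctsa (chr2:164833749-164833778, plus strand): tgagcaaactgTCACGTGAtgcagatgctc

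For Mcoln1 and Ctsd, and for Lamp1, the 250 bases before the start are printed, with E-box cores and the longer palindrome in capitals, because in these genes a peak lay at several cores. Lamp1 holds only the core; it was chosen after its values were seen.
Mcoln1 (chr8:3500269-3500518, plus strand): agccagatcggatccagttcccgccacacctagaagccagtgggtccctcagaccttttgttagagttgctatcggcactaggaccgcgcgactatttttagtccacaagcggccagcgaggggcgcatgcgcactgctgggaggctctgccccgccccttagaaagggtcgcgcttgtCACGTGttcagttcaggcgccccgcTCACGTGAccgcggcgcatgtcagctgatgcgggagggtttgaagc
Ctsd (chr7:142387828-142388077, minus strand): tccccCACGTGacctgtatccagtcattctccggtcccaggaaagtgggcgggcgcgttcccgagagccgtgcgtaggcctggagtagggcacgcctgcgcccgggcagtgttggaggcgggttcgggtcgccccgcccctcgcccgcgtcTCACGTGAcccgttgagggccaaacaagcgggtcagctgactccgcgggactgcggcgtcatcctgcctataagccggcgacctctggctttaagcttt
Lamp1 (chr8:13158911-13159160, plus strand): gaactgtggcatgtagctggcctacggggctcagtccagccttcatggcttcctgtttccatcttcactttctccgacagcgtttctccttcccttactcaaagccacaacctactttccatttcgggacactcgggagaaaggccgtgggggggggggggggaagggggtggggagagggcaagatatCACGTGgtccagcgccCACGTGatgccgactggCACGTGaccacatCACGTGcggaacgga

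Mcoln1 encodes TRPML1, the calcium channel of the lysosomal membrane. A peak covered both of its cores in all 8 libraries, and its summit lay a median of 21.0 and 46.5 bp from them. Ctsd encodes the aspartic protease cathepsin D, and its cores, at -245 and -98 from the start, were covered in all 8 libraries. Lamp1 encodes an abundant protein of the lysosomal membrane. Its 4 cores, at -61, -45, -28 and -15, were covered in 4 of 8 libraries, and the strongest summit there lay 40 bp after the start. The core at -14 of Atg5, which encodes the conjugation partner of Atg12, and those of Atp6v0d1 and Atp6v1a were covered in all 8. The Cln3 element was covered in 3 libraries and the Ctsa site in 2. Of 18 cores in the listed promoters, 7 were covered in all 8 libraries.

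**Figure D1:**
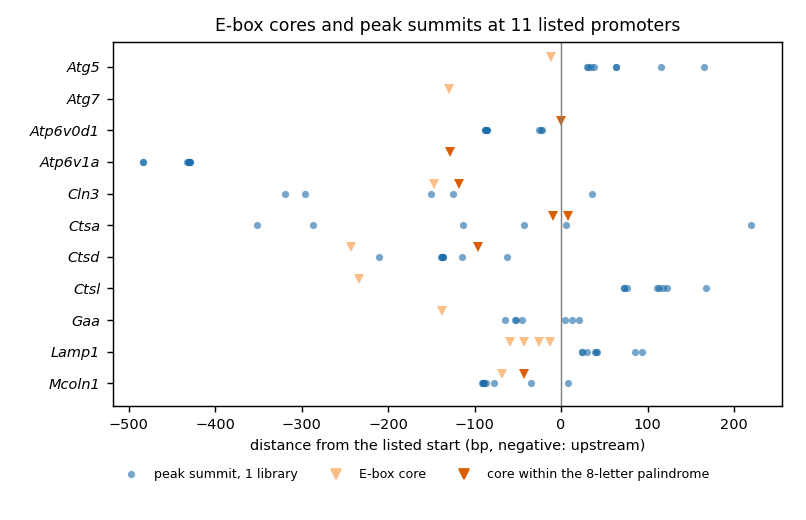
Horizontal axis: distance in bp from the listed start, negative upstream. Each row is 1 of the 11 listed promoters with an E-box core; circles are the summits of the strongest peak over the promoter, 1 per library, and triangles are the 18 cores, darker within the 8-letter palindrome. At Mcoln1 most summits lie just upstream of both cores, at Ctsl they lie downstream of the start, and Atg7 has no peak over this start.

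The GC box GGGCGG, a motif of the KLF and SP families searched on both strands, stood in 25 of 41 listed promoters (61%). It stood in 35.7% of all promoters, in 46.2% of those of protein-coding genes and in 75.4% of those open in all 8 libraries. Among the 20 listed promoters open in all 8, 16 held it. The KLF-type CACCC boxes GGGTGTGG and GGGTGGGG, searched on both strands, stood in 3 and 5 of 41 promoters (7.32% and 12.2%). They stood in 3.56% and 9.99% of all promoters and in 3.63% and 11% of those of protein-coding genes. GGGTGTGG, GGGTGGGG and GGGCGG do not contain one another.

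Most of these genes had a peak in their window at every time. An open gene here is one with a peak in its window in all 8 libraries. That peak need not be in the same region each time or nearest to that gene. A peak was called in all 8 libraries at 34 of 42 genes (81.0%), against 10673 of 21887 protein-coding genes (48.8%). The other 8 genes had a peak in 1 to 7 libraries. Median gene length was 22646 bp for the listed genes and 17169 bp for all, and a longer gene has a wider window. The share of open genes was 5 of 5 for the V-ATPase, 3 of 3 for Tfeb, Tfe3 and Mitf, 5 of 5 for the genes that start autophagy, 7 of 8 for conjugation, LC3 family and cargo receptor, 6 of 7 for lysosomal membrane proteins, 6 of 11 for hydrolases and 2 of 3 for Npc2, Psap and Grn. These are descriptions of peak lists, with no test.

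**Figure D2:**
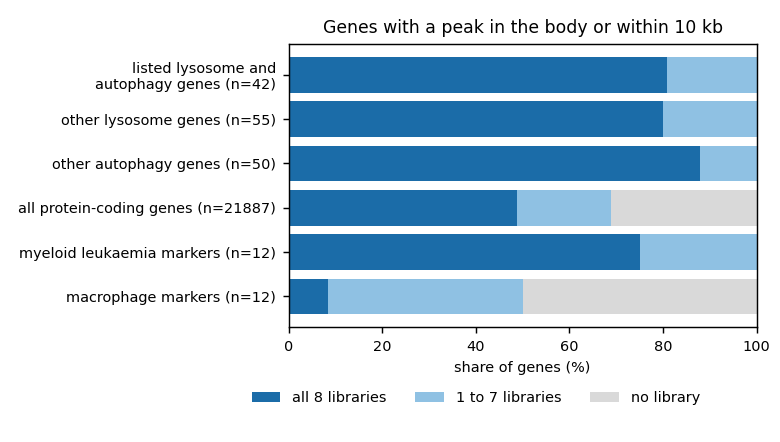
Horizontal axis: share of genes in percent; each bar is a gene list with its number of genes. Colours give genes with a peak in the body or within 10 kb in all 8, in 1 to 7 or in no library. The dark part covers 34 of 42 listed genes, 44 of 55 other lysosome genes, 44 of 50 other autophagy genes and 1 of 12 macrophage markers.

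Sites open in every library sat mainly at gene starts, while most of the 114 regions did not. A region with its strongest summit within 1 kb of the gene's own start was found at 40 of the 42 genes, and at 28 genes it had a peak in all 8 libraries; for the 9 genes with no listed start, either end of the gene was used. Of 41 such regions 68.3% were called in all 8 libraries, against 15.1% of the 73 regions farther out. Measured to any listed start, 60.0% of the listed genes' 45 near regions and 12.9% of their 62 far regions were in all 8, beside 62.7% and 15.1% over all genes. The listed genes thus lay near the background for the regions that could be placed. The other 7 listed regions lay on a chromosome with no listed start. Of these 57.1% were in all 8, beside 32.2% of 681 such regions over all genes. Of the 11 far regions present throughout, 7 lay closer to an end of another gene. Tpp1, a tripeptidyl peptidase of the lysosome, is an example. Its regions open in all 8 libraries lie closest to ends of Ilk and Taf10, while the region at its own start was called in 5 libraries. At Ctsa the only region in all 8 lies 232 bp from an end of Zswim1, and the region at its own start was called in 7.

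Peaks at the listed genes made up 0.365% to 0.445% of each list. They numbered 82 and 59 (0h), 74 and 74 (6h), 80 and 72 (12h), 64 and 66 (24h), replicate 1 before replicate 2 as everywhere below. Means were 70.5 ± 16.3 (0h), 74 ± 0 (6h), 76 ± 5.66 (12h) and 65 ± 1.41 (24h; SD, n = 2 for each). The 0h counts enclosed all the later counts, but the 0h shares of the list did not. Those shares were 0.377% and 0.377% (0h), 0.427% and 0.409% (6h), 0.365% and 0.365% (12h), 0.424% and 0.445% (24h). The lists themselves held from 14826 to 21903 peaks on the main chromosomes, and the second 0h library had the narrowest peaks, with a median of 282 bp against 370 to 460 bp in the others. Cut to the 14826 strongest peaks of each library, the counts were 61 and 57 (0h), 64 and 62 (6h), 56 and 61 (12h), and 63 and 66 (24h). Both 6h and both 24h counts then lay above both 0h counts, while those of 12h did not. These differences were not tested. Genes with a peak numbered 41 and 37 at 0h and 39 in each 24h library. No peak list holds read totals, and the number of reads behind a missing peak is unknown. An exact permutation of 2 libraries against 2 cannot go below p = 0.333.

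Among the lysosomal membrane proteins, Scarb2, the receptor that brings glucocerebrosidase to the lysosome, had the strongest peaks by rank. The percentile of fold enrichment within a list, where 100 is the strongest peak, was 99.0 and 95.4 (0h), 93.9 and 97.7 (6h), 94.9 and 88.3 (12h), 98.8 and 95.9 (24h). Those peaks lay 6118 bp beyond the gene and closest to an end of Nup54. The region at the start of Scarb2 itself ranked from 20.3 to 78.8. Npc1, the cholesterol exporter of the lysosomal membrane, ranked 87.5 and 75.2 (0h), 91.1 and 82.1 (6h), 95.4 and 79.2 (12h), 87.4 and 88.5 (24h) at its own start. Each later time overlapped 0h. Mcoln1 had its own start open throughout, at a fold enrichment of 9.95 and 12.5 (0h), 8.79 and 8.92 (6h), 10.9 and 14.3 (12h), 10.3 and 12.9 (24h). Fold enrichment is the pile-up at the summit over the local background of the same library, as the authors deposited it.

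The abundant membrane proteins Lamp1 and Lamp2 were weaker by rank. Lamp1 ranked 59.7 and 3.61 (0h), 49.9 and 46.4 (6h), 34.4 and 41.8 (12h), 50.6 and 47.3 (24h). Lamp2, whose isoform LAMP2A takes up proteins in chaperone-mediated autophagy, ranked 35.7 and 12.7 (0h), 49.8 and 38.6 (6h), 35.3 and 18.6 (12h), 41.6 and 51.7 (24h). The second 0h library was the lowest for both genes. Cd63, a tetraspanin of late endosomes, had a peak in 6 libraries, missing in the second 0h and the second 12h library. Its strongest fold was 5.55 in the first 0h library, 6.47 and 5.68 (6h), 4.74 in the first 12h library, and 4.58 and 6.15 (24h). None of its 6 regions was called in all 8 libraries. Cln3, a membrane protein mutated in juvenile Batten disease, had a peak in every library but no region shared by all 8.

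The hydrolases were divided. Ctsc, which encodes cathepsin C, the activator of neutrophil granule proteases, had a fold of 11.2 and 11.3 (0h), 10.5 and 11.3 (6h), 11.0 and 13.2 (12h), 12.1 and 12.3 (24h). Ctsl, a cysteine protease, had a fold of 14.0 and 10.7 (0h), 11.2 and 12.1 (6h), 15.0 and 12.6 (12h), 9.77 and 11.1 (24h). For Ctsl each later time overlapped 0h. For Ctsc both 24h folds lay above both 0h folds. By percentile within the list, however, 24h (84.73 and 82.86) overlapped 0h (81.93 and 84.66). The rank test below gave a score difference of 0.20 ± 0.503 (SE; limma, adjusted p = 0.97). Ctsb, another cysteine protease, was among the weakest of the genes open throughout: at its start the fold was 10.9 and 4.89 (0h), 6.87 and 6.94 (6h), 8.83 and 9.06 (12h), 5.34 and 8.23 (24h). The 0h pair was the most uneven.

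Ctss and Ctsh, which encode cathepsins S and H of antigen-presenting and phagocytic cells, were almost without peaks. Ctss had 1 peak in each 0h library and none in the 6 later ones. Those 2 peaks were at different places, on either side of the gene. The peak of the first library, with a fold of 5.78, was closest to an end of Ctsk, and that of the second, with a fold of 4.89, closest to an end of Hormad1. Neither was at the Ctss start, over which no library had a peak. Ctsh had 2 peaks, both in the second 0h library, with folds of 4.69 and 3.87. Peaks at macrophage markers were most frequent at 0h: of 12 such genes 6 and 3 (0h), 2 and 1 (6h), 1 and 2 (12h), 1 and 1 (24h) had a peak. C1qa, C1qb, C1qc, Timd4, Marco and Vcam1 had none in any library, and Axl was the 1 gene with a peak in all 8. The part of macrophages in the Ctss peaks was not tested. Of 6 stromal and endothelial markers 4 and 2 (0h), 3 and 2 (6h), 3 and 2 (12h), 0 and 1 (24h) had a peak. Of 6 B lineage markers the numbers were 3 and 3, 3 and 3, 3 and 4, 2 and 1. Of 6 T and NK markers they were 4 and 2, 3 and 2, 3 and 2, 2 and 3, and 3 of 6 erythroid markers had a peak in every library. Both 24h counts thus lay under both 0h counts for macrophage, stromal and endothelial, and B lineage markers, but not for T and NK or erythroid ones. Only for macrophage markers did both 6h counts already lie under both 0h counts. Over all protein-coding genes 13824 and 12265 (0h), 12888 and 13091 (6h), and 12358 and 12359 (24h) had a peak. These differences were not tested. Of 12 markers of myeloid leukaemia cells 9 had a peak in all 8 libraries, among them Spi1, Cebpa, Hoxa9 and Meis1, while Mpo had one in 4 and Kit and Itgam in 5.

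Other hydrolases missed 1 or 2 libraries. Gaa, the glycogen-degrading acid alpha-glucosidase, had a peak in every library but the second 0h one, with a fold of 8.63 in the first, then 7.08 and 7.06 (6h), 9.06 and 10.0 (12h), 9.10 and 7.16 (24h). Ctsz, a carboxypeptidase, also lacked a peak only there. Its strongest fold was 6.02 in the first 0h library, then 7.18 and 7.15 (6h), 7.68 and 6.29 (12h), 7.7 and 4.79 (24h). The 6h values are from the region at its start, which was called in 4 libraries and in neither 24h library. The other values are from a region inside the gene, 2603 bp from its start. Hexa, the alpha chain of beta-hexosaminidase, lacked a peak in the second 0h library and in the first 24h library. Where called, these 3 hydrolase genes had folds of up to 10.0. Those of Hexa were 4.87 (0h), 6.53 and 6.96 (6h), 6.90 and 8.18 (12h) and 5.40 (24h). The 8.18 is from a region 5479 bp before the gene, and the start of Hexa had 6.29 in that library. The second 0h library was also the 1 without a peak at Grn, which encodes progranulin, a secreted and lysosomal growth factor. At Grn the strongest fold was 6.30 in the first 0h library, then 6.62 and 7.33 (6h), 5.49 and 8.69 (12h), 7.38 and 5.01 (24h). Without the second 0h library 37 genes had a peak in all of the 7 remaining ones. Npc2, which hands cholesterol to Npc1, was the strongest of all listed genes: its fold was 14.0 and 16.4 (0h), 18.3 and 14.8 (6h), 17.5 and 16.2 (12h), 15.6 and 14.0 (24h), and its lowest percentile was 93.0. Each later time overlapped 0h here as well.

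**Figure D3:**
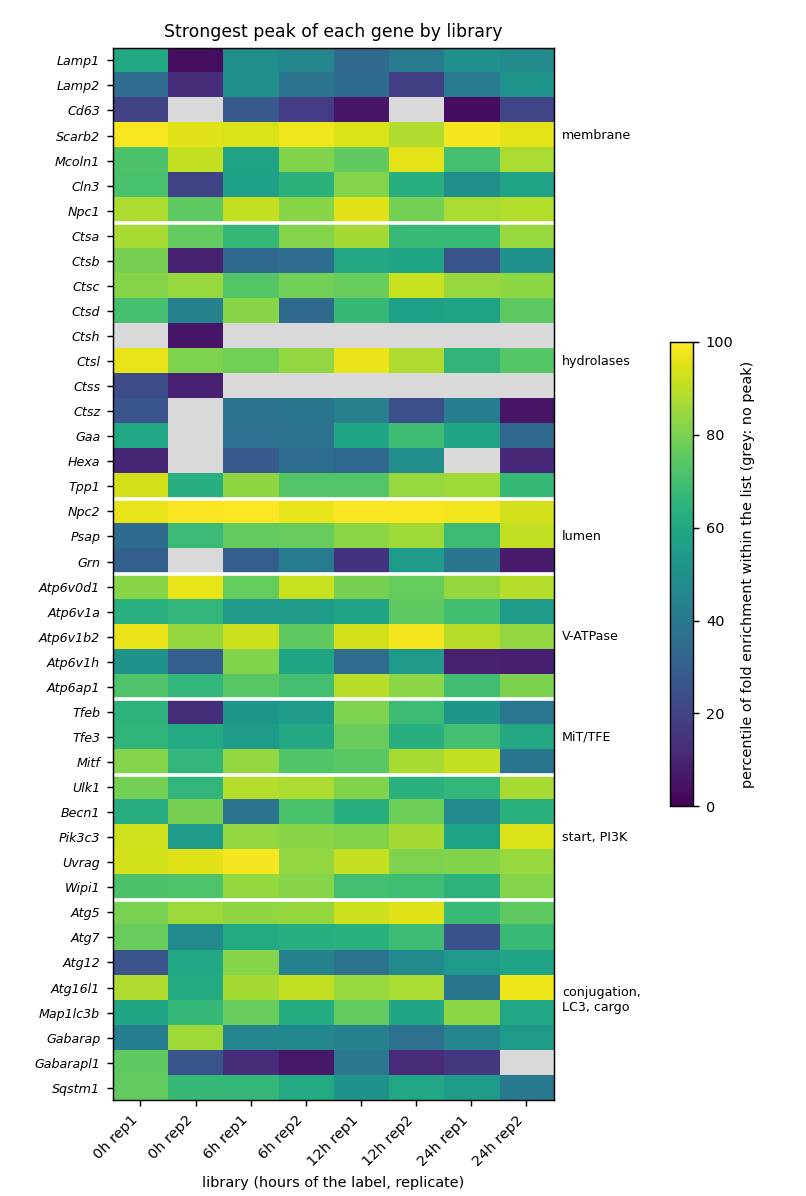
Rows: the 42 genes, grouped by role; columns: the 8 libraries by hours and replicate. Colour is the percentile of fold enrichment of the gene's strongest peak within its library's list, and grey marks no peak. Npc2 and Scarb2 stay near the top, Ctsh and Ctss are nearly all grey, and the second 0h column holds 5 of the grey cells.

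The V-ATPase genes, which encode subunits of the proton pump, were all open at their starts in all 8 libraries. Atp6v1b2, a subunit of the cytosolic sector, ranked 97.0 and 84.2 (0h), 92.3 and 75.7 (6h), 93.7 and 98.5 (12h), 89.1 and 83.8 (24h). Atp6v1h, a regulatory subunit, was lower, with a fold of 7.88 and 6.32 (0h), 11.5 and 8.88 (6h), 7.06 and 8.59 (12h), 5.18 and 5.10 (24h). Both 24h libraries lay under the 6 earlier ones. Ranked among the 9170 regions with a peak in all 8 libraries, the Atp6v1h region stood at a mean percentile of 13.2 at 0h and 1.53 at 24h. Its normal score was -1.04 ± 0.514 (SE) from 0h to 24h, which did not pass (limma, adjusted p = 0.859).

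The 3 transcription factor genes were open at their first start in all 8 libraries. Tfe3 had 1 region, with a fold of 9.25 and 8.56 (0h), 8.56 and 9.0 (6h), 11.1 and 9.41 (12h), 10.3 and 9.62 (24h). Tfeb had 7 regions and Mitf 5, and the inner starts of Mitf had no peak over them in any library. At the first start of Mitf the fold was 11.1 and 9.01 (0h), 12.0 and 10.5 (6h), 10.7 and 12.4 (12h), 13.2 and 7.59 (24h). The 24h libraries thus enclosed all others.

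Among the autophagy genes, Uvrag, a subunit of the class III PI3-kinase complex, had the highest rank, with a fold at its start of 13.0 and 13.7 (0h), 16.2 and 12.1 (6h), 13.4 and 11.5 (12h), 11.6 and 12.5 (24h). Ulk1, the kinase that starts autophagy, and Wipi1, which reads phosphoinositides on the growing membrane, were open at their starts in all 8. Gabarap and Gabarapl1, homologues of LC3 that mark autophagosome membranes, were weak. Gabarapl1 had a fold of 10.4 and 6.03 (0h), 5.37 and 4.83 (6h), 7.37 and 5.29 (12h), and 5.72 in the first 24h library, with no peak in the second. The strongest region of Gabarap, open in all 8 libraries, lay closest to an end of Phf23, with a fold of 7.22 and 11.5 (0h), 7.82 and 7.78 (6h), 7.73 and 7.21 (12h), 7.95 and 9.06 (24h). All of its later values lay between both 0h values or just under the lower one. The region at its own start had folds from 4.63 to 6.08 in 7 libraries. Sqstm1, the cargo receptor p62, had a fold of 10.4 and 9.12 (0h), 9.72 and 9.08 (6h), 8.33 and 9.12 (12h), 8.79 and 7.72 (24h). Both 24h libraries lay under both 0h libraries, with a score difference of -0.62 ± 0.483 (SE; limma, adjusted p = 0.918).

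Few sites separated a later time from 0h. A region is called gained when a peak was present in both libraries of a later time and absent from both 0h libraries, and lost in the reverse case. At 6h 1 of the 114 regions was gained and 1 lost, while over the regions of all protein-coding genes 1.76% were gained and 2.06% lost. At 12h 3 were gained and 2 lost, with 3.89% and 1.26% over all. At 24h 1 was gained and 2 lost, with 1.11% and 3.99% over all. The listed genes' shares were 0.877% and 0.877% (6h), 2.63% and 1.75% (12h), 0.877% and 1.75% (24h). With 1 to 3 regions in each count, no difference from the background is read from them, and the 3 comparisons share their 0h libraries.

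**Figure D4:**
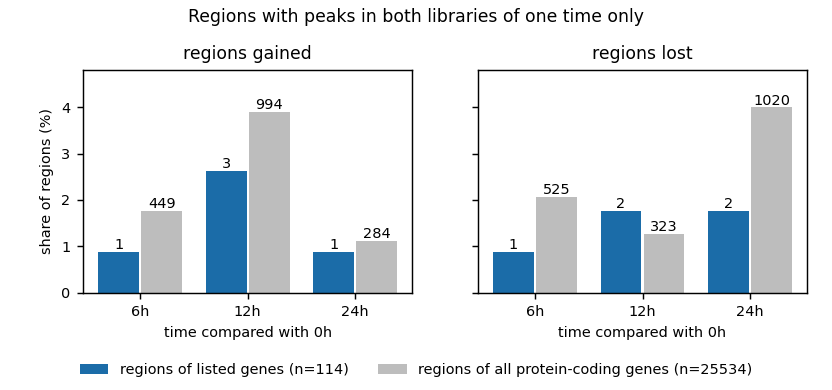
Vertical axis: share of regions in percent; horizontal axis: the time compared with 0h; left gained, right lost. Dark bars are the 114 regions of the listed genes and grey bars the 25534 regions of all protein-coding genes, with the number of regions above each bar. No dark bar counts more than 3 regions.

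All of the called regions lay more than 1 kb from the start of the listed gene. The gained region of Tfeb (chromosome 17, 47766808 to 47767644), inside the gene, had a fold of 4.92 and 5.27 at 6h, no peak at 12h, and 5.62 and 5.00 at 24h. The 12h regions gained were inside Grn (chromosome 11, 102432265 to 102432643; fold 5.21 and 4.61), inside Atp6v1a (chromosome 16, 44104350 to 44104633; 6.54 and 6.94) and inside Mitf (chromosome 6, 97829170 to 97829669; 6.68 and 7.18). Each of these also had a peak in 1 library of 24h, and those of Grn and Mitf in the first 6h library. A region inside Uvrag (chromosome 7, 98889108 to 98889373), with a fold of 4.46 and 4.69, was called at 0h only. The region lost near Mcoln1 at 12h and 24h (chromosome 8, 3493070 to 3493379; fold 7.05 and 6.32 at 0h, and 6.14 in the second 6h library) lies 7399 bp before the gene and 18 bp from an end of Zfp358. No called region ranked above the percentile 41.1 of its list in any library. With lists of equal length, the region of Mcoln1 was still lost at both times and none of the other 5 genes kept its call. Other regions, of Cd63, Hexa, Npc2, Cln3, Gabarap, Gabarapl1 and Tpp1, were then called instead.

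The counts depended on single libraries. At 6h, 17 regions were gained and 8 lost without the first 0h library, 4 and 11 without the second, 4 and 2 without the first 6h library, and 7 and 3 without the second. At 12h these numbers were 18 and 9, 4 and 9, 8 and 4, and 9 and 2, the last pairs without the first and second 12h library. At 24h they were 12 and 9, 3 and 16, 3 and 4, and 5 and 5. Fewer libraries then have to agree, and the counts over the 25534 regions of all protein-coding genes grew too. In the same order, those were 2001 and 1470, 676 and 3621, 1735 and 1075, and 1522 and 1171 at 6h. At 12h they were 3210 and 1092, 1406 and 2775, 2278 and 821, and 3124 and 601. At 24h they were 1414 and 2170, 450 and 4841, 1000 and 1701, and 1033 and 1668. The growth was not in equal proportion. Gained regions at 24h went from 1 to 12 for the listed genes and from 284 to 1414 over all without the first 0h library. This difference was not tested.

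Sites open throughout were compared by rank. The 39 regions of listed genes with a peak in all 8 libraries were ranked by fold among the 9170 such regions of the genome, and normal scores of the ranks were tested with limma. None of the 39 passed at 6h, 12h or 24h (smallest adjusted p = 0.963, 0.870 and 0.843), and of all 9170 regions 0% passed at each time. Unadjusted p-values (limma) were under 0.05 for 1 of 39 at 6h, which was lower, 0 at 12h, and 2 at 24h, which were higher. Over all 9170 regions, 222 (2.42%) were higher and 230 (2.51%) lower at that level at 6h. The numbers were 299 (3.26%) and 208 (2.27%) at 12h, and 271 (2.96%) and 270 (2.94%) at 24h. With 0 to 2 in each count, no excess over this background is read for the listed regions. The difference in mean percentile ran from -33.1 to 33.8 points at 6h, from -33.8 to 38.2 at 12h and from -27.8 to 40.5 at 24h, with medians of 0.52, -1.58 and -0.90. The median SE of a difference was 0.538 normal-score units, and the shifts of more than 1 unit described next did not pass.

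The 3 regions under 0.05 before adjustment were at the starts of Psap, Lamp2 and Becn1. Psap encodes prosaposin, the precursor of the activators of sphingolipid breakdown. Its fold was 6.64 and 9.21 (0h), 10.8 and 11.0 (6h), 11.8 and 12.2 (12h), 10.1 and 13.6 (24h). All 6 later libraries lay above both 0h libraries. From 0h to 24h its score differed by 1.34 ± 0.575 (SE; limma, adjusted p = 0.843). Becn1, the scaffold of the class III PI3-kinase complex, had a fold of 8.66 and 9.28 (0h), 5.37 and 6.79 (6h), 9.22 and 9.87 (12h), 8.05 and 9.99 (24h). The 6h libraries lay under the other 6 (score -1.42 ± 0.514, limma, adjusted p = 0.963). For Lamp2 the score at 24h was 1.04 ± 0.489 above 0h (limma, adjusted p = 0.843).

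**Figure D5:**
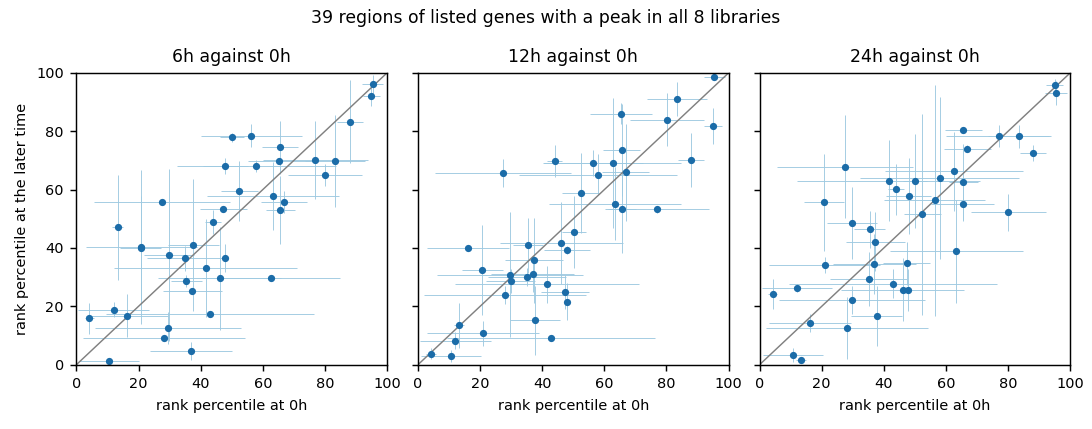
Each panel sets the rank percentile at 0h (horizontal axis) against that at 6h, 12h or 24h (vertical axis) for the 39 regions of listed genes with a peak in all 8 libraries; ranks are among 9170 regions. Points are means of 2 libraries, bars reach both libraries, and the line marks equal rank. Points lie on both sides of the line at each time, with medians of 0.52, -1.58 and -0.90 points.

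Other genes of the same pathways were described in the same way. Of 55 further lysosome genes 44 had a peak in all 8 libraries (80.0%), and of 50 further autophagy and mTORC1 genes 44 (88.0%). Over their 132 regions the lysosome genes had 4 gained and 0 lost (6h), 3 and 2 (12h), 1 and 8 (24h). Their shares were 3.03% and 0% (6h), 2.27% and 1.52% (12h), 0.758% and 6.06% (24h). Over their 114 regions the autophagy genes had 0 gained and 4 lost (6h), 3 and 2 (12h), 2 and 5 (24h). For these genes the shares were 0% and 3.51% (6h), 2.63% and 1.75% (12h), 1.75% and 4.39% (24h). The background is the one given above, 1.76% gained and 2.06% lost (6h), 3.89% and 1.26% (12h), 1.11% and 3.99% (24h). The differences between the lists were not tested.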

How the data were processed

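ATAC-seq libraries were made from 8 samples of sorted mouse leukaemia cells, 2 per time. Per the submitters' processing notes, BWA, SAMtools and MACS2 were used on mm10; their versions and settings, and any read shifting or removal of duplicates, are not stated there. For each library the authors deposited 1 list, so peaks were called per sample. It gives each peak a fold enrichment, a linear ratio to the local background deposited by the authors. It also gives a −log10 p-value and a −log10 q-value, deposited by the authors, with a lowest −log10 q of 2.00. The integer score deposited by the authors was not used.

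Only peaks of the 19 autosomes and of X and Y entered. Groups and replicate numbers come from the sample titles. Gene positions come from a RefSeq table of GRCm38.p6. The members and lists were chosen with earlier results of these data known. Named genes are those with a gained or lost region, with peaks in some libraries only, or with the 5 highest or 5 lowest median percentiles among genes open in all 8 libraries; others were named for their role, or after their values were seen (Psap, Becn1 and Lamp2 for an unadjusted p under 0.05, Lamp1 for its sequence). Folds of different libraries are not on one scale, so regions with a peak in all 8 libraries were ranked within each library, and normal scores of the ranks were fitted by limma 3.58.1 (R 4.3.3) with 4 times of 2 libraries and Benjamini-Hochberg adjustment over 9170 regions, at a threshold of 0.05. Alternatives were a −log10 q of at least 5, lists of 14826 peaks, a window of 2 kb, summit windows, untransformed percentiles, ranks of −log10 p, a replicate block and leaving out each library.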

Additional observations from a re-analysis of the deposited data

How the results depend on the processing

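Of 24 values of the gained and lost counts under other processing choices, 8 moved by more than 1.5 times, and of 24 with one library left out 22 did. Equal counts can hold different genes: the 1 region lost at 6h was of Uvrag, and of Gabarapl1 at a −log10 q of at least 5. With that threshold, 0 regions were gained at 6h. At 24h the 1 region gained at that threshold was of Gabarap and not of Tfeb. At equal list length 2 were gained at 6h, 2 gained at 24h and 1 lost at 24h. With a window of 2 kb, 1 was lost at 12h and 1 at 24h. With windows of 150 bp on each side of summits, 2 were gained at 6h and 0 at 24h. Genes with a peak in all 8 libraries numbered 34, and 28, 31 and 33 with the stricter q, equal length and the 2 kb window. With single libraries left out in turn, these genes numbered 34 to 37. Gained regions numbered 4 to 17 at 6h, 4 to 18 at 12h and 3 to 12 at 24h, and lost regions 2 to 11, 2 to 9 and 4 to 16. The rank test called 0 regions of listed genes at each time under every alternative run, leaving out each library included. With a replicate block it also called 0 at 6h, 0 at 12h and 0 at 24h, and it changed no call. The ranks showed no shared effect of the replicate number. Over 6 pairs of times, the deviations of same-numbered libraries from their time means had correlations of -0.032 to 0.0062. Such correlations cannot tell whether same-numbered libraries stem from the same mouse. Counts of gained and lost regions come from no test. Read depth is unknown, which limits what a missing peak can show.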

Other observations

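Regions of pathway genes outside the list are given here; they were chosen after their values were seen. A region in the window of Gnptg, a subunit of the enzyme that tags hydrolases for the lysosome (chromosome 17, 25247886 to 25248609), had a fold of 10.6 and 7.74 (0h), 7.96 and 8.68 (6h), 12.7 and 10.0 (12h), with no peak in either 24h library. It lies 5390 bp from the nearest gene end, that of Tsr3. A region in the window of Gabarapl2, a homologue of LC3 (chromosome 8, 111933542 to 111934069), had a fold of 8.83 and 9.96, 6.87 and 12.7, and 14.0 and 12.7 at the same times and no peak at 24h. It lies 14 bp from an end of Tmem231.

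A region 8852 bp from the nearest end of Rragc, which encodes a Rag GTPase that recruits mTORC1 to lysosomes (chromosome 4, 123927908 to 123928234), had a fold of 7.55 and 7.82 at 0h and no peak in the 6 later libraries. A region in the window of Plekhm1, an adaptor for fusion with lysosomes (chromosome 11, 103360330 to 103360675), had peaks in the 4 libraries of 12h and 24h only, with folds of 4.46 and 5.40 at 12h and 5.15 and 5.82 at 24h. It was closest to an end of Arhgap27.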
